A study of Mus musculus with 4 samples.

Results

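The Hox genes of the 4 mouse clusters were read in muscle dissected from limb and back of embryos at E13.5. Members were all genes whose symbol in the platform annotation is Hoxa, Hoxb, Hoxc or Hoxd followed by a number only, which gave 33 genes (9 Hoxa, 9 Hoxb, 7 Hoxc and 8 Hoxd) of 18193 genes named by 1 symbol on the array, read by 48 of its 45101 probe sets. RefSeq lists 39 mouse Hox genes. Those that are no members have no listed probe set here or, as Hoxb8 and Hoxd4, are named only together with a neighbour, on 3 probe sets. The series, titled for the part muscle takes in motor neuron development, holds 4 groups of 1 Affymetrix array each: MyoD-null limb and wild-type (WT) limb, and Myf5-null back and WT back, all on BALB/c. The labels do not give the number of embryos behind an array, which limb was taken, or the level of the back. With 1 array per group no value has a replicate error and no genotype can be tested. Limb against back has 2 arrays a side, of unlike genotype, and an exact permutation test over them, two-sided, cannot give a p under 0.333, so none is used.

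Hox genes encode homeodomain transcription factors that give cells their address along the body. They lie in 4 clusters, on chromosomes 6 (Hoxa), 11 (Hoxb), 15 (Hoxc) and 2 (Hoxd) in mouse, and are numbered by paralogue group, low numbers being expressed towards the head and high numbers towards the tail. In limb buds the high-numbered Hoxa and Hoxd genes are switched on once more, in nested domains from shoulder to digits, whereas Hoxc genes mark cervical, brachial, thoracic and lumbar levels of the trunk.

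Signals below are MAS5 intensities scaled to a common trimmed mean of 500 per array. A signal under 100 was set to 100 before log2 ratios were taken, so that a ratio against such a signal is a bound. A gene was called when its ratio was at least 2-fold and its brighter array reached 200. Of the 33 Hox genes, 30 reached 100 in at least 1 array and 18 in all 4 arrays, while 8 stayed under 200 throughout. Those under 100 in all arrays were Hoxb13, Hoxc13 and Hoxd12. Probe sets of one gene differed by a median SD of 0.40 (log2 ratio, WT limb over WT back, 6513 genes), against 0.68 over the 8 Hox genes with several measured probe sets, and this covers probe noise, not animals. The targeted genes were checked as well: Myod1 was 688 in MyoD-null limb and 1438 in WT limb, whereas Myf5 was 583 in the array with the Myf5-null label and 508 in WT back. No source used here gives the deleted part of either allele or the place of the probes, so that array is named by its label, as the Myf5-null-labelled back. Across arrays the median signal ran between 125 and 166, and between 56.0% and 63.6% of probe sets reached 100. The 3 prime over 5 prime signal ratio, a sign of RNA quality and labelling, was 12.2 in WT limb and 6.45 in WT back for Gapdh, and 6.88 and 3.20 for Actb, and 8.06 in MyoD-null limb and 9.46 in the Myf5-null-labelled back for Gapdh. Its part in the ratios was not tested.

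Limb over back gave the widest differences among Hox genes. Between the WT arrays, 7 of the 29 measured Hox genes were at least 2-fold higher in limb (24.1%, against 5.3% of all 14605 measured genes) and 6 at least 2-fold lower (20.7%, against 3.5%). The higher ones were Hoxa10, Hoxa11, Hoxa13, Hoxd9, Hoxd10, Hoxd11 and Hoxd13, and the lower ones Hoxa7, Hoxb3, Hoxb5, Hoxc8, Hoxc9 and Hoxc10. Between MyoD-null limb and the Myf5-null-labelled back, a pair that differs in genotype as well as in position, 6 of 28 were higher (21.4%, against 3.61%) and 8 lower (28.6%, against 7.73%). Both limb arrays were at least 2-fold above both back arrays for 6 of 30 Hox genes (20.0%, against 0.462% of 15809 genes), and below them by that fold for 4 (13.3%, against 0.493%), which were Hoxa7, Hoxc8, Hoxc9 and Hoxc10. With no limit on size, both limb arrays lay above both back arrays for the same 6 genes (20.0%, against 17.1% of all genes) and below them for 12 (40.0%, against 18.3%).

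**Figure D1:**
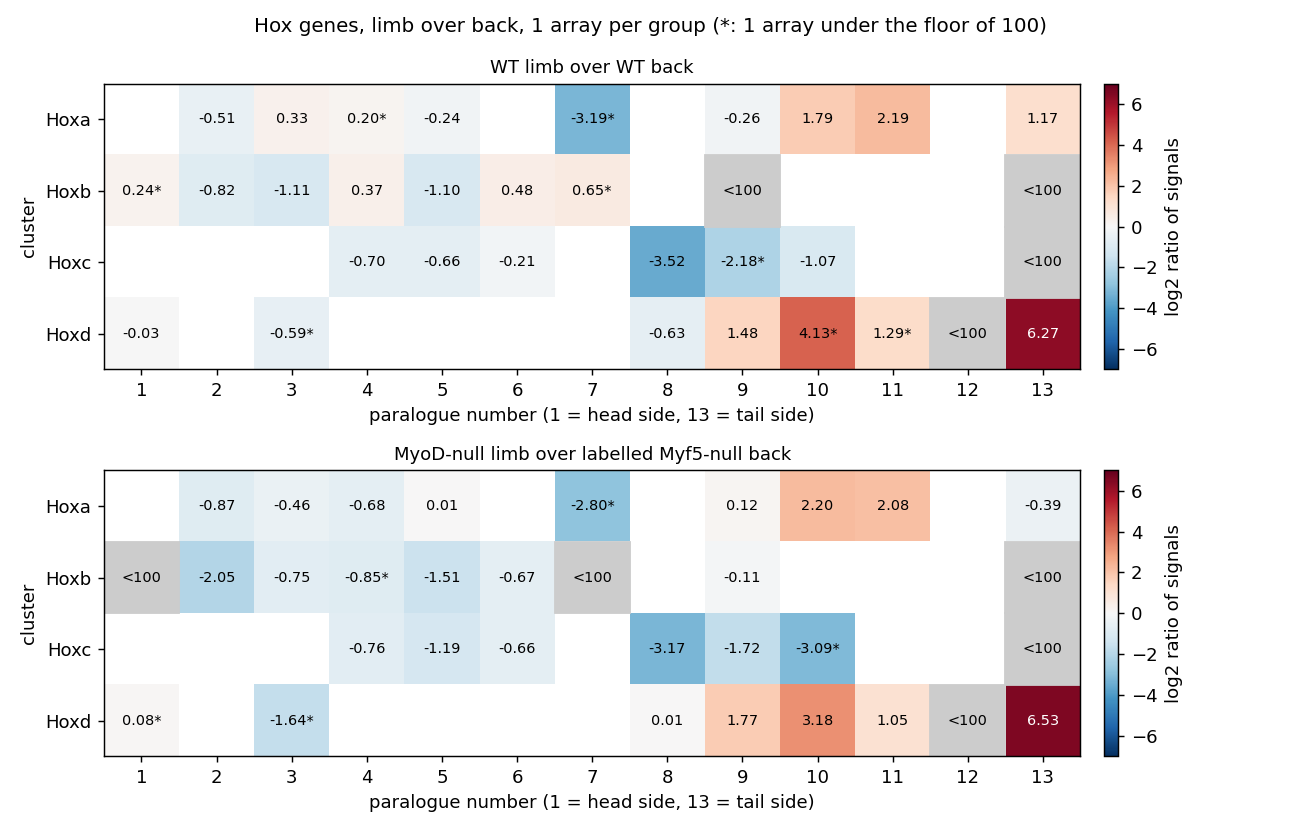
Log2 ratios of the Hox genes by cluster (rows) and paralogue number (columns), with WT limb over WT back in the upper panel and MyoD-null limb over the Myf5-null-labelled back in the lower one. Empty cells have no member, grey cells are under 100 in both arrays, and an asterisk marks a bound against the floor. High ratios sit at Hoxa10, Hoxa11, Hoxd9 to Hoxd11 and Hoxd13, up to 6.53 at Hoxd13, and the lowest ratio of each panel sits at Hoxc8 (-3.52 and -3.17).

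Hoxd genes of the tail end of the cluster were higher in limb, and Hoxd13 and Hoxd10 had the highest limb over back ratios of the Hox genes in both pairs. Hoxd13, which patterns the hand and foot plate, had a signal of 15406 in MyoD-null limb and 12104 in WT limb, against 167 in the Myf5-null-labelled back and 157 in WT back. Both limb arrays were far above both back arrays, and the ratio of 6.27 (77.1-fold) between the WT arrays was the highest of the 11897 genes at 100 or more in both; that of 6.53 in the other pair was the highest of 11817. These values come from 1 of its 2 probe sets, and the other was under 100 in all arrays, at 63.4 and 23.6 in MyoD-null and WT limb, against 14.3 and 8.49 in the Myf5-null-labelled and WT back. Hoxd10, of the more proximal limb, was 1522 in MyoD-null limb and 1756 in WT limb, against 168 in the Myf5-null-labelled back and 8.73, under the floor, in WT back. It was thus at least 17.6-fold higher in WT limb than in WT back, and 9.09-fold higher in the other pair. Hoxd9, also of the proximal limb, was 1344 in MyoD-null limb and 1122 in WT limb, against 393 in the Myf5-null-labelled back and 401 in WT back, log2 ratios of 1.77 and 1.48. Hoxd11, needed for forearm and lower leg, was 234 in MyoD-null limb and 245 in WT limb, against 113 in the Myf5-null-labelled back and 14.7 in WT back. Its ratio was 1.05 in the mutant pair, and it was at least 2.45-fold higher between the WT arrays.

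The run of limb-high Hoxd genes ended between Hoxd9 and Hoxd8. Hoxd8 was 899 in MyoD-null limb and 575 in WT limb, against 891 in the Myf5-null-labelled back and 890 in WT back, so that the limb arrays did not lie apart from the back arrays. Hoxd3, a gene of the head side of the cluster, was under 100 in both limb arrays, against 312 in the Myf5-null-labelled back and 150.3 in WT back. Hoxd1 stayed between 58.0 and 150 in all arrays. Hoxd12 was under 100 in all arrays and gives no reading, although it lies between Hoxd11 and Hoxd13.

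By the probe sets used, the Hoxa cluster showed a like step, between Hoxa9 and Hoxa10. Hoxa10, a proximal limb and lumbar gene, was 3846 in MyoD-null limb and 3239 in WT limb, against 837 in the Myf5-null-labelled back and 937 in WT back, log2 ratios of 2.20 and 1.79. It is read here by a probe set whose name marks several transcripts of the gene, and its other, dim probe set gave 0.42 in the mutant pair. Hoxa11, the forearm partner of Hoxd11, was 879 in MyoD-null limb and 989 in WT limb, against 208 in the Myf5-null-labelled back and 217 in WT back (2.08 and 2.19). In both genes each limb array exceeded each back array. Hoxa13, the partner of Hoxd13 in hand and foot, was different: 123 in MyoD-null limb and 318 in WT limb, against 161 in the Myf5-null-labelled back and 141 in WT back. WT limb alone stood out, and the pairs gave ratios of -0.39 and 1.17. Hoxa9 did not separate the pieces by the probe set used. It was 5423 in MyoD-null limb and 4148 in WT limb, against 4976 in the Myf5-null-labelled back and 4971 in WT back. A dimmer probe set gave 0.90 in the mutant pair and 0.57 in the WT pair. There both limb arrays (603 in MyoD-null, 522 in WT) lay above both back arrays (322 in Myf5-null-labelled, 351 in WT).

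Towards the head side, Hoxa7, a gene of the thoracic trunk, ran the other way. Its signal was 30.7 in MyoD-null limb and 56.3 in WT limb, both under the floor, against 696 in the Myf5-null-labelled back and 910.4 in WT back, a drop in limb of at least 6.96-fold in the mutant pair and at least 9.10-fold between the WT arrays. Hoxa5, known in mouse for lung and cervical vertebrae, depended on the probe set. The brighter one, whose name marks probes that can be shared with other genes, gave 2169 in MyoD-null limb and 1781 in WT limb, against 2159 in the Myf5-null-labelled back and 2101 in WT back, with no gap between limb and back. The other gave 417 and 446 in MyoD-null and WT limb, against 1335 and 1225 in the Myf5-null-labelled and WT back, ratios of -1.68 and -1.46. Hoxa2, a hindbrain and branchial arch gene, was 122 in MyoD-null limb and 170.5 in WT limb, against 222 in the Myf5-null-labelled back and 243.5 in WT back, gaps under 2-fold. Hoxa3, of pharyngeal organs, had ratios of -0.46 and 0.33 in the mutant and WT pairs, and other probe sets gave 1.11, -0.27 and -0.63 between the WT arrays. Hoxa4 was 109 and 115 in MyoD-null and WT limb, against 175 and 23.4 in the Myf5-null-labelled and WT back, so that its back arrays lay on either side of the limb arrays.

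No Hoxc gene was called higher in limb. Hoxc13, a gene of hair and nails, was under 100 in all arrays and not measured, at 87.7 and 86.3 in MyoD-null and WT limb, against 12.1 and 21.4 in the Myf5-null-labelled and WT back, and without rescaling it was called higher in limb in both pairs. All 6 measured Hoxc genes had ratios below 0 in both pairs, with a median log2 ratio of -1.45 for MyoD-null limb over the Myf5-null-labelled back and of -0.88 for WT limb over WT back, where the medians of all measured genes were -0.08 and 0.04. Hoxc8, which marks brachial and thoracic levels, was 333 in MyoD-null limb and 279 in WT limb, against 3009 in the Myf5-null-labelled back and 3196 in WT back. The 11.5-fold gap between the WT arrays was the lowest ratio of the 11897 genes ranked (-3.52), and that of the other pair, -3.17, ranked 2 from the bottom of 11817. Hoxc9, which sets thoracic identity in mouse motor neurons, was 145 in MyoD-null limb and 34.6 in WT limb, against 478 in the Myf5-null-labelled back and 452 in WT back. Hoxc10, of lumbar levels and hindlimb, was 21.7 in MyoD-null limb and 397 in WT limb, against 854 in the Myf5-null-labelled back and 832 in WT back. The back arrays were close together in each of these genes, while 1 limb array was under the floor for Hoxc9 (WT) and for Hoxc10 (MyoD-null).

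By the probe sets used, the head-side Hoxc genes had smaller gaps. Hoxc4 was 756 in MyoD-null limb and 762 in WT limb, against 1284 in the Myf5-null-labelled back and 1238 in WT back (-0.76 and -0.70). Hoxc5, of cervical and brachial levels, was 1242 in MyoD-null limb and 1129 in WT limb, against 2836 in the Myf5-null-labelled back and 1788 in WT back. Another Hoxc5 probe set gave the opposite sign in the mutant pair, 0.47 against -1.19, and as a median over its probe sets the gene stood at 0.47 there. Hoxc6, a gene of brachial level, had 3 probe sets of unlike sign. Between the WT arrays the one used, of a name that marks shared probes, gave -0.21. A further one gave -1.32 (247 in limb, 618 in back) and the other 1.16 (223 in limb, 60.0 in back). In the mutant pair they gave -0.66, -2.38 (150 in limb, 781 in back) and 0.44, in that order. As a median over probe sets, and without probe sets whose names mark shared probes, Hoxc6 was called lower in limb in both pairs.

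No Hoxb gene had a signal above 600 in any array. Hoxb2 and Hoxb3 are hindbrain and neck genes. Hoxb2 was 112 in MyoD-null limb and 302 in WT limb, against 462 in the Myf5-null-labelled back and 535 in WT back. Hoxb3 was 306 in MyoD-null limb and 277 in WT limb, against 514 in the Myf5-null-labelled back and 599.8 in WT back, but its other probe set gave 0.60 rather than -1.11 between the WT arrays. Hoxb5, which in mouse helps place the forelimb, was 124 in MyoD-null limb and 115 in WT limb, against 352 in the Myf5-null-labelled back and 245 in WT back, with the limb arrays below the back arrays. Hoxb4 and Hoxb6 had ratios of 0.37 and 0.48 between the WT arrays and of -0.85 and -0.67 in the other pair. Another Hoxb4 probe set was below 0 in both pairs (-0.21 and -1.27), and as a median over probe sets Hoxb4 was called lower in the mutant pair (-1.06). Hoxb1, Hoxb7 and Hoxb9 stayed between 21.2 and 157 in all arrays.

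**Figure D2:**
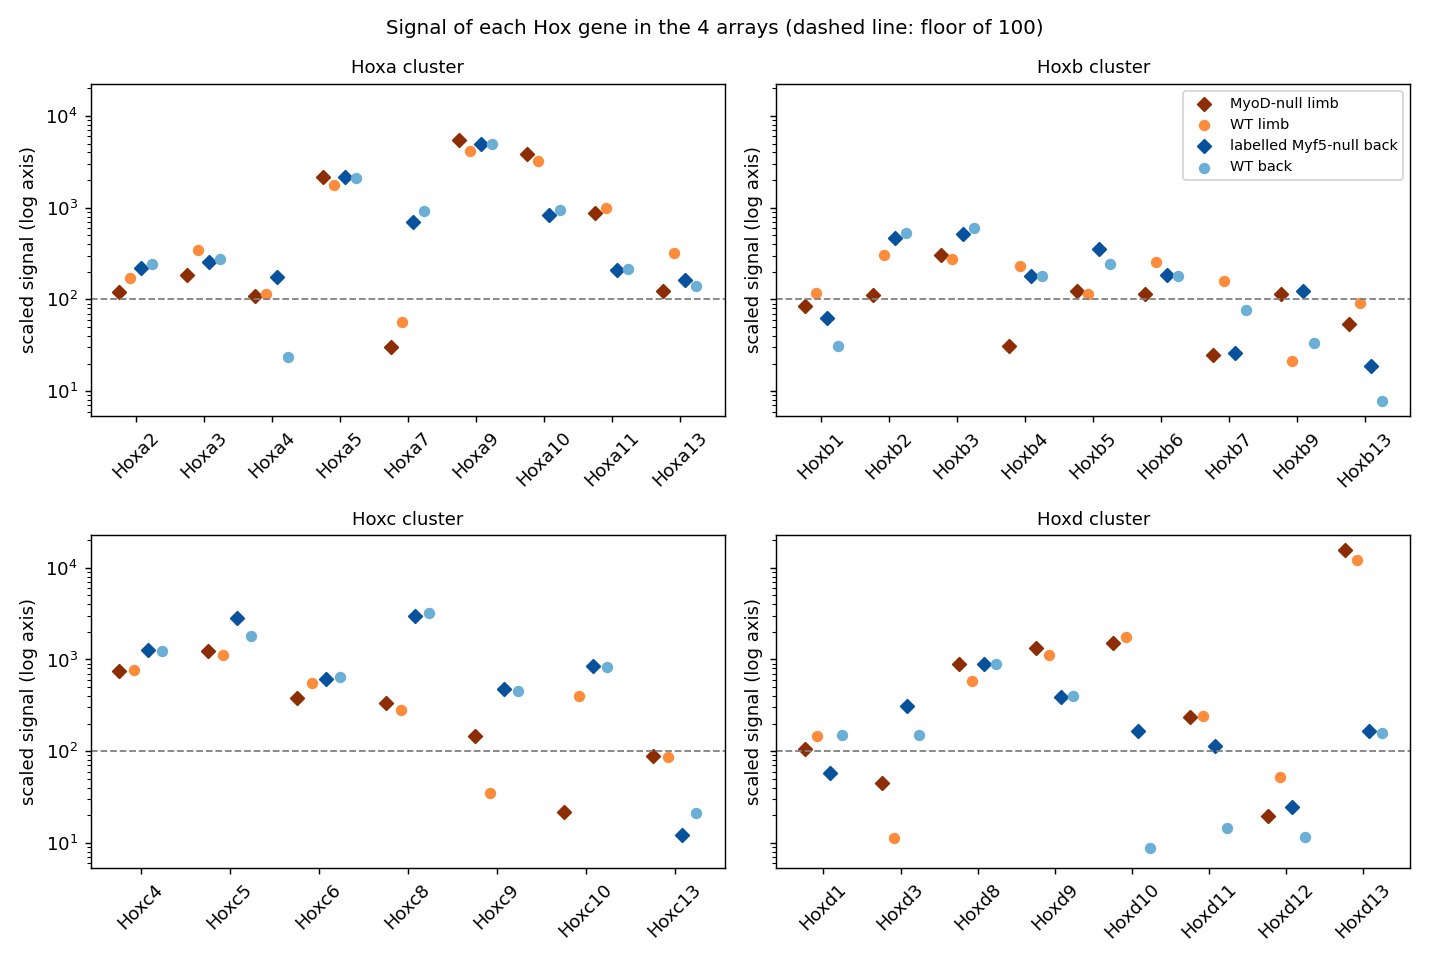
Scaled signal (log axis) of each Hox gene in MyoD-null limb, WT limb, the Myf5-null-labelled back and WT back, in 1 panel per cluster. Levels of different genes are read by different probes and cannot be set against each other. Within a gene, limb arrays (brown, orange) lie above back arrays (blue) from Hoxd9 to Hoxd11, at Hoxd13 and at Hoxa10 and Hoxa11, and below them at Hoxa7 and from Hoxc8 to Hoxc10.

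By paralogue number, groups 9 to 13 had a median above 0 and lower groups medians below 0, and within groups 9 to 13 the clusters went different ways. The median log2 ratio of groups 9 to 13 was 1.05 for MyoD-null limb over the Myf5-null-labelled back (11 measured of 14) and 1.39 for WT limb over WT back (10 measured). That of groups 4 to 8 was -0.76 and -0.43, and that of groups 1 to 3 was -0.81 and -0.51, in the same order of pairs. Among groups 9 to 13, all 4 measured Hoxd genes were above 0 in both pairs (medians 2.48 and 2.81), both measured Hoxc genes were below 0 (medians -2.41 and -1.62), and 3 of 4 Hoxa genes were above 0 in each pair (medians 1.10 and 1.48). The WT pair uses no mutant array. Without probe sets of shared-probe names (shared between transcripts or between genes), the mutant pair's median for groups 9 to 13 was 0.42, because Hoxa10 was then read by its dim probe set, and with a floor of 200 it was 0.23.

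Upstream sequence is shown for genes with an entry in the promoter table. They are the 3 with the highest ratios of WT limb over WT back and the 1 with the lowest. In the mutant pair Hoxa10 (2.20) stood above Hoxa11 (2.08). The sequences run from 250 bases before to 50 after the RefSeq transcription start (GRCm38.p6), with CpG pairs in capitals. The array values themselves belong to no genome build. Hoxd13 lies at chr2:74667975-74668274 (+ strand) and Hoxd10 at chr2:74691641-74691940 (+ strand), while Hoxa11 lies at chr6:52245761-52246060 (- strand) and Hoxa7 at chr6:52218524-52218823 (- strand).
Hoxd13: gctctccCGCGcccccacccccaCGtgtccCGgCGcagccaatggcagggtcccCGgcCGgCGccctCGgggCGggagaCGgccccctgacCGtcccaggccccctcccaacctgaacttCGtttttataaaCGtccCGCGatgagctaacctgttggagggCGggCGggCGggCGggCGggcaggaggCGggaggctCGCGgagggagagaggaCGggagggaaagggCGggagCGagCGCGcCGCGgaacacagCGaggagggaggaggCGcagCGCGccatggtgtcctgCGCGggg
Hoxd10: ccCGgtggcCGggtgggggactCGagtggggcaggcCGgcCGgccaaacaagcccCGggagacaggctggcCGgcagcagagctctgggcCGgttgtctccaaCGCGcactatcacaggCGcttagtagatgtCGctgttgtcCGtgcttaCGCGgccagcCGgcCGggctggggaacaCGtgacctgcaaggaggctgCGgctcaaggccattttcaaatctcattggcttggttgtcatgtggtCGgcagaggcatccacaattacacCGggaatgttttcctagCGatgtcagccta
Hoxa11: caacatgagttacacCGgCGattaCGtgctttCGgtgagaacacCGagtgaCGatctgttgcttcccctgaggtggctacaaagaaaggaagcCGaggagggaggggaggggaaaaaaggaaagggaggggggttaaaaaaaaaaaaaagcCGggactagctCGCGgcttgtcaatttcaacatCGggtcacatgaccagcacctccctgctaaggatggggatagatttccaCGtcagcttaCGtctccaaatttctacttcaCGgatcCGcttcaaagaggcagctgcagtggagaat
Hoxa7: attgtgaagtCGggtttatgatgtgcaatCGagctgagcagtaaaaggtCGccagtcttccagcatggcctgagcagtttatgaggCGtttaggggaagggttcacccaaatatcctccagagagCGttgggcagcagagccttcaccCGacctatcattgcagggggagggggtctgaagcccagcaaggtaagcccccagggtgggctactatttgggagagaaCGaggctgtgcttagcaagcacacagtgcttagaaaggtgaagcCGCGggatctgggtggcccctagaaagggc
Of the 33 members, 19 had a promoter entry, 21 entries in all. Their median was 15 CpG pairs, against 7 over all 32851 promoters of that length in the table. Hoxd13 had 37 CpG pairs at 74.3% G and C, Hoxd10 had 22 at 62.7%, Hoxa11 had 15 at 51.0% and Hoxa7 had 9 at 55.7%. Matches to letters were searched on both strands over the 24 Hox entries, those of Hoxa6, Hoxb8 and Hoxd4 included. The CCAAT box (CCAAT) was in 15 of 24, against 37.4% of all promoters, the TATA box (TATAAA) in 4, against 13.6%, the Pbx-Hox letters TGATNNAT in 4, against 8.85%, and TTTATNG, letters bound by posterior Hox and Cdx proteins, in 2, against 10.9%. Of the 4 sequences shown, Hoxd13 held CCAAT 1 time and a pair of overlapping TATAAA matches on opposite strands, Hoxd10 held CCAAT 1 time, and Hoxa11 and Hoxa7 held none of these letters. Such matches describe the letters in the window only.

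Genes that work with or beside Hox genes were read from fixed lists. Of the TALE cofactors, which bind DNA together with Hox proteins, 6 of 7 measured members were below 0 between the WT arrays (median -0.84). Of the 7, 2 (Meis1 and Meis3) were called lower in limb, against 3.5% of all genes, and 0 higher, against 5.3%. In the mutant pair 2 of 8 (Meis1 and Meis2) were called lower, against 7.73%, and 0 higher, against 3.61%. Meis1, a marker of the proximal limb, was 684 in MyoD-null limb and 1066 in WT limb, against 2624 in the Myf5-null-labelled back and 2656 in WT back. Meis2 was 2594 and 3347 in MyoD-null and WT limb, against 7244 and 6356 in the Myf5-null-labelled and WT back. Both limb arrays were below both back arrays in both genes. Meis3 was 210.1 and 42.8 in MyoD-null and WT limb, against 406 and 346 in the Myf5-null-labelled and WT back. Pbx2 and Pbx3 had ratios between -0.17 and 0.16 in both pairs.

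Of 5 measured transcripts from within or beside the clusters, 1 was called higher in limb between the WT arrays (5.3% of all genes), and in the mutant pair 1 was called higher (3.61% of all genes) and 3 lower (7.73%). Hoxa11os, transcribed opposite Hoxa11, was 835 in MyoD-null limb and 596 in WT limb, against 158 in the Myf5-null-labelled back and 30.4 in WT back, a log2 ratio of 2.40 in the mutant pair and at least 5.96-fold higher in WT limb than in WT back. Hoxd3os1 was 238 and 240.3 in MyoD-null and WT limb, against 575 and 473 in the Myf5-null-labelled and WT back. No source used here says which strand each probe set reads. Hoxb5os was 248.6 in MyoD-null limb and 643 in WT limb, against 671 in the Myf5-null-labelled back and 508 in WT back. Evx2, of the same list, was called lower in the mutant pair (-1.18). It was 93.0 and 240 in MyoD-null and WT limb, against 227 and 187 in the Myf5-null-labelled and WT back. Of the genes flanking the clusters, 0 of 11 measured were called between the WT arrays (median -0.23), where 5.3% of all genes were higher and 3.5% lower. In the mutant pair 1 of 13 was called (median -0.18), where 3.61% of all genes were higher and 7.73% lower. That gene, Lnpk, of the Hoxd flank, was higher there by a log2 ratio of 1.85, at 577 and 346 in MyoD-null and WT limb, against 160.1 and 277 in the Myf5-null-labelled and WT back.

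Of the upstream regulators, 10 of 11 measured were above 0 between the WT arrays (median 0.93) and 3 were called higher and 0 lower in limb (5.3% and 3.5% of all genes). In the mutant pair 7 of 12 were above 0 (median 0.10), with 4 called higher and 2, Gdf11 and Egr2, lower (3.61% and 7.73% of all genes). Hand2, which acts upstream of the posterior limb programme, was 3500.3 in MyoD-null limb and 4508 in WT limb, against 1125 in the Myf5-null-labelled back and 909 in WT back. Aldh1a2, which makes retinoic acid, was 3927 and 3470 in MyoD-null and WT limb, against 1272 and 1377 in the Myf5-null-labelled and WT back. Cyp26b1, which breaks it down, was 903 and 956 in MyoD-null and WT limb, against 47.5 and 494 in the Myf5-null-labelled and WT back. Cyp26a1, another such enzyme, was 363 and 556 in MyoD-null and WT limb, against 389 and 216 in the Myf5-null-labelled and WT back. Cdx1 and Cdx2 were under 100 in all arrays. Of 19 Polycomb and trithorax genes, which keep Hox genes off or on, 8 were above and 11 below 0 between the WT arrays (median -0.08), and 15 above and 4 below 0 in the mutant pair (median 0.39, against -0.08 over all genes). None was called in the mutant pair, and 1 was called higher between the WT arrays (5.3% of all genes): Pcgf2, at 317 and 524 in MyoD-null and WT limb, against 553 and 146 in the Myf5-null-labelled and WT back.

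Other tissues also differed between the pieces. The 18 limb type and limb mesenchyme genes on the array summed to 29031 in MyoD-null limb and 28716 in WT limb, against 13211 in the Myf5-null-labelled back and 12898 in WT back, and 10 of 17 measured were called higher and 0 lower in WT limb than in WT back (5.3% and 3.5% of all genes). In the mutant pair 9 were called higher and 2, Pitx1 and Isl1, lower (3.61% and 7.73% of all genes). Shox2, a gene of the proximal limb, was 4304 and 3759 in MyoD-null and WT limb, against 299 and 761 in the Myf5-null-labelled and WT back. The 12 muscle markers summed to 45334 and 68588 in MyoD-null and WT limb, against 89552 and 130295 in the Myf5-null-labelled and WT back, and all 12 reached 100 in every array. Such sums weigh the brightest genes most, and in WT back Actc1 was 39912, Myh3 30238 and Acta1 27605. Of the 12, 10 were below 0 in each pair (medians -0.97 in the mutant and -0.75 in the WT pair). Above 0 were Myf5 (0.81) and Pax7 (1.26) in the mutant pair, and Ckm (0.18) and Pax3 (0.46) in the WT pair. The 10 cartilage markers summed to 21952 and 18577 in MyoD-null and WT limb, against 4917 and 20799 in the Myf5-null-labelled and WT back. The 14 spinal cord markers summed to 1086 and 2031 in MyoD-null and WT limb, against 1912 and 1494 in the Myf5-null-labelled and WT back, with 6, 10, 7 and 6 of them at 100 or more in that order of arrays and with Olig2, Slc18a3 and Nkx6-1 under 100 in all 4 arrays. The 8 sensory ganglion and nerve markers summed to 2059 and 1969 in MyoD-null and WT limb, against 2748 and 3386 in the Myf5-null-labelled and WT back. They were below 0 in 7 of 8 between the WT arrays (median -0.90) and in 6 of 8 in the mutant pair (median -0.61), and Nefm, a neurofilament, was 246 and 275 in MyoD-null and WT limb, against 720 and 898 in the Myf5-null-labelled and WT back. Of the sclerotome and trunk markers, 2 of 6 measured were called higher in limb and 1 lower between the WT arrays (5.3% and 3.5% of all genes). In the mutant pair 4 of 8 were called higher and 0 lower (3.61% and 7.73%). Tbx18 was 4613 and 2901 in MyoD-null and WT limb, against 418 and 702 in the Myf5-null-labelled and WT back. The 8 skin markers summed to 15258 and 13283 in MyoD-null and WT limb, against 10380 and 7995 in the Myf5-null-labelled and WT back. Of them, 7 were above 0 between the WT arrays (median 0.33) and 6 in the mutant pair (median 0.52). The 6 blood markers summed to 8710 and 9305 in MyoD-null and WT limb, against 10564 and 10051 in the Myf5-null-labelled and WT back. Of 8 measured kidney and viscera markers, 2 (Six2 and Sftpc) were called higher in limb and 4 lower between the WT arrays (5.3% and 3.5% of all genes). In the mutant pair 1 of 5 was called higher and 2 lower (3.61% and 7.73%). Afp, of that list, was 2.61 and 176 in MyoD-null and WT limb, against 4.52 and 1651 in the Myf5-null-labelled and WT back. Six2 ran the other way, at 2590 and 1918 in MyoD-null and WT limb, against 700 and 703 in the Myf5-null-labelled and WT back. Muscle markers were thus accompanied by those of other tissues in every piece, and which cells carried the Hox signals cannot be told apart. Fewer cells of a type and less RNA per cell cannot be told apart either, and the part of these tissues in the Hox ratios was not tested.

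MyoD-null limb over WT limb sets the positional map of one genotype against the other within limb. The limb-high genes were close in both arrays: Hoxd13 had a log2 ratio of 0.35, Hoxd9 of 0.26, Hoxa10 of 0.25, Hoxa11 of -0.17, Hoxd10 of -0.21 and Hoxd11 of -0.06. The median of 28 measured Hox genes was -0.07, against -0.04 over all 14496 measured genes. None was at least 2-fold higher, against 2.3% of all genes, and 5 were at least 2-fold lower (17.9%, against 5.19%): Hoxc10, Hoxb2, Hoxa13, Hoxb4 and Hoxb6. Against WT limb, Hoxc10 in MyoD-null limb was at least 3.97-fold lower. Hoxb2 was 112 in MyoD-null limb and 302 in WT limb (-1.44), and Hoxa13 was 123 and 318 (-1.37). Hoxb4 was 30.8 in MyoD-null limb and 233 in WT limb, with -0.07 in its other probe set, and Hoxb6 was 115 in MyoD-null limb and 253 in WT limb (-1.14).

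All 5 lay between 200 and 400 in WT limb, the range in which calls were frequent. Of the 2892 genes whose brighter limb array was in that range, 19.8% were lower by that fold in MyoD-null limb and 7.61% higher by it, and of the 9 Hox genes in it the same 5 were lower and 0 higher. Without rescaling, 6 Hox genes were lower and 2 (Hoxb9 and Hoxc9) higher. The 3 prime over 5 prime signal ratio of Gapdh was 8.06 in MyoD-null limb and 12.2 in WT limb. Of the genes that mark hindlimb, Pitx1 was 243 in MyoD-null limb and 757 in WT limb, which is at least 2-fold lower, and Tbx4 was 484 in MyoD-null limb and 815 in WT limb, which is not. The forelimb gene Tbx5 was 1375 in MyoD-null limb and 1152 in WT limb. Dim spinal cord markers were below 0 in 10 of 10 measured (median -0.48), where 7816 of all 14496 measured genes were below 0 (median -0.04). The part of any of these in the Hox ratios was not tested.

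The Myf5-null-labelled back over WT back is the trunk counterpart, and it shares no array with the limb pair but shares each of its arrays with a limb and back pair. The median of 28 measured genes was 0.01, against 0.05 over all 14684 measured genes, and ratios ran from -0.58 to 1.05. Only Hoxd3 was called, at 312 in the Myf5-null-labelled back and 150.3 in WT back (3.57% of measured Hox genes, against 5.5% of all genes at least 2-fold higher). None was at least 2-fold lower, against 2.48%. The call of Hoxd3 was lost under quantile normalization, loess and a pseudocount of 100. Without rescaling 5 Hox genes were higher and 2 lower, and no share over all genes is given for that setting. The trunk genes were near 0: Hoxc8 at -0.09, Hoxc9 at 0.08, Hoxc10 at 0.04, Hoxc4 at 0.05, and Hoxa7 at -0.39. Hoxc5 was 2836 in the Myf5-null-labelled back and 1788 in WT back (0.67), with -0.09 in another probe set. In the same pair the cartilage marker sum differed, 4917 in the Myf5-null-labelled back and 20799 in WT back. The limb and back differences between genotypes were not tested against each other.

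**Figure D3:**
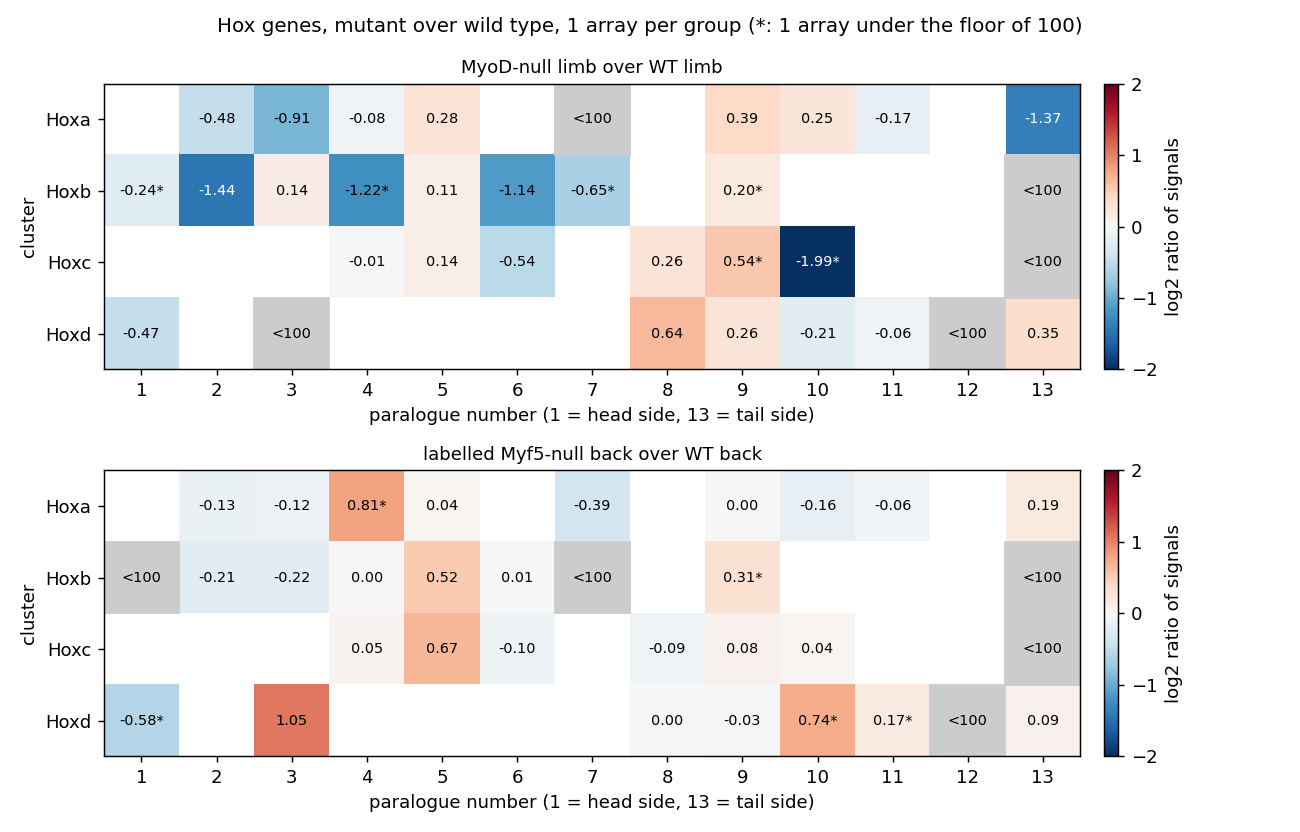
Log2 ratios of the Hox genes by cluster (rows) and paralogue number (columns), for MyoD-null over WT limb and for the Myf5-null-labelled back over WT back. The colour scale spans -2 to 2, and grey cells are under 100 in both arrays. Limb ratios reach -1.99 at Hoxc10, and back ratios lie between -0.58 and 1.05.

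How far 1 probe set can be relied on was read from the 11 genes with several. Between the WT arrays Hoxa3, Hoxa9, Hoxb3, Hoxb4 and Hoxc6 had a measured probe set of the opposite sign to the one used. Those of Hoxa5, Hoxc5 and Hoxd8 had the same sign. Of the genes on which the limb and back pattern rests, Hoxa11, Hoxd9, Hoxd10, Hoxd11, Hoxa7, Hoxc8, Hoxc9 and Hoxc10 have a single probe set, and Hoxa10 and Hoxd13 have a further one that is under 100 in both WT arrays. The median over probe sets therefore lowers Hoxd13 to 3.13 between the WT arrays and 3.26 in the mutant pair, still called, and takes Hoxa10 out of the calls of the WT pair.

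**Figure D4:**
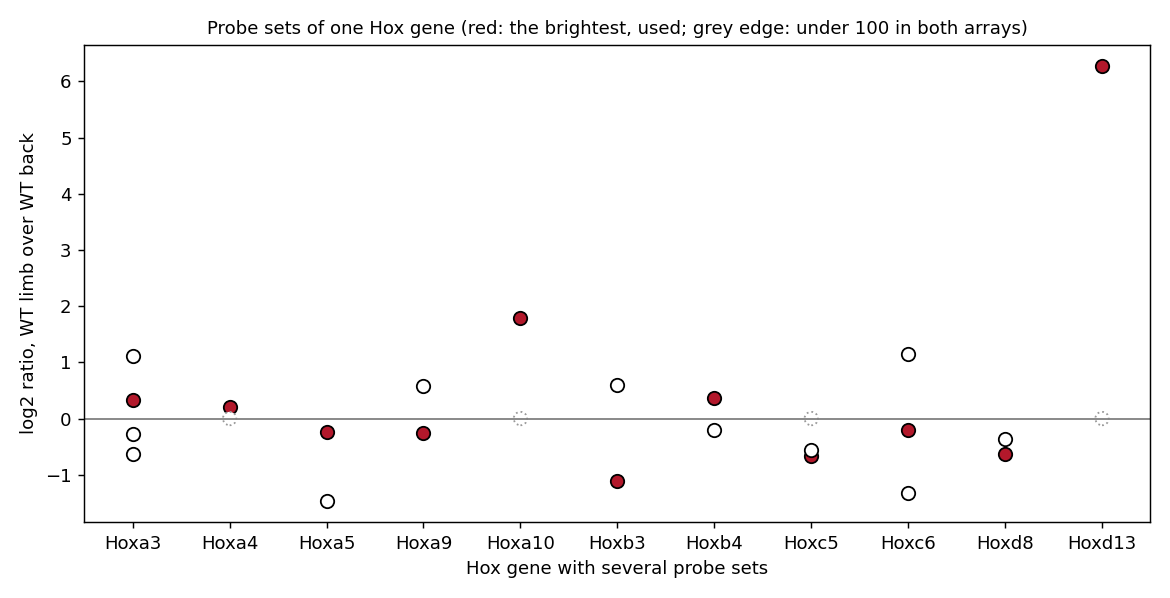
Log2 ratio, WT limb over WT back, of every probe set of the 11 Hox genes that have several. Red points are the brightest probe set, used throughout, and open points the others. The red points of Hoxa10 (1.79) and Hoxd13 (6.27) stand above 0, each with a dotted point at 0 that is under the floor in both arrays. Hoxa3, Hoxa9, Hoxb3, Hoxb4 and Hoxc6 have points on both sides of 0.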

How the data were processed

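The authors deposited linear intensity values, 1 for each probe set of an array. The submitters' processing notes name MAS5 as the tool behind them. Total RNA was taken with Trizol and 6 µg of it labelled with biotin, per the labels' protocols. The MAS5 version, detection calls and scanner files were not used here. Signals were rescaled per array to a 2% trimmed mean of 500, leaving out 64 control probe sets, then floored at 100 and put on a log2 scale. Of 45101 probe sets, 34958 have 1 gene symbol in the platform annotation, 932 have several and 9211 are unlisted and unnamed here. Of several probe sets, the one with the highest mean log2 signal stood for its gene. Members and lists were chosen with earlier results of these data known. The rule named all members and, from each list, up to 4 genes at least 2-fold apart. Not all of these are named here, and other list genes were chosen after their values were seen. Tried as the 8 alternatives were quantile normalization, loess (span 0.3), no rescaling, floors of 50 and 200, a pseudocount of 100, the median over probe sets, and no probe sets with shared-probe names. Python 3.11.15 with pandas 2.3.3, scipy 1.17.1 and statsmodels 0.14.6 was used. Promoters are from RefSeq, GRCm38.p6. The number of arrays limits the precision.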

Additional observations from a re-analysis of the deposited data

Results flagged for a closer look

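A probe set that names Hoxd4 and Hoxd3 together was in no comparison, since it cannot be given to 1 gene. It had a signal of 214 in the Myf5-null-labelled back, against 119 in WT back, and stood out by passing 200 above its wild-type array. It was 47.9 in MyoD-null limb and 15.1 in WT limb. No group holds enough arrays to look for one that lies apart from the others.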

How the results depend on the processing

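No paired analysis was possible because each group has 1 array. A count was taken to hold within 1.5 times, and a ratio or median when its shift stayed under the typical SD among probe sets of a gene; of these counts and medians, 155 held and 21 did not. Without rescaling, where 100 lies lower against the signals, the genes at least 2-fold higher numbered 12 in WT limb over WT back (7 above), 2 in MyoD-null over WT limb (0) and 5 in the Myf5-null-labelled back over WT back (1), and 2 were lower there (0). That 1 gene, Hoxd3, gave 0 under quantile normalization, loess, a floor of 200 and the pseudocount. The 5 genes lower in MyoD-null limb were 3 after loess, 0 with a floor of 200 (as no gene under 400 can then pass) and 2 with the pseudocount, which also left 3 of 6 lower in WT limb than in WT back. For MyoD-null limb over the Myf5-null-labelled back, the median of Hox genes (-0.66) was -0.086 after loess and -0.076 with a floor of 200; that of groups 9 to 13 (1.05) was 1.60 after loess, 0.23 with a floor of 200 and 0.42 without shared-probe names, where that of groups 4 to 8 was -1.35. Between the WT arrays, groups 1 to 3 had a median of 0 with a floor of 200 (-0.51), Hoxd of 0.29 with that floor (1.29), and Hoxb of -0.29 without shared-probe names (0.24). Hoxc5 changed sign, to 0.47, as a median over probe sets in the mutant pair. Of the single-gene ratios, 759 held, 140 moved and 1 reversed. The cause of these shifts was not tested, and no share over all genes is given for the counts of the alternatives. Hoxa11, Hoxd9, Hoxd10, Hoxd13, Hoxa7, Hoxc8 and Hoxc9 kept their limb and back calls in both pairs under the 6 alternatives of scaling, floor and pseudocount. The other 2 could change only Hoxd13 among them, the others having 1 probe set of an unshared name. Dim genes, among them several of Hoxb, had signals near 100, and the part of background in their ratios was not tested.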

Other observations

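The other probe sets that carry a pair of Hox names stayed dim. A further one for Hoxd4 and Hoxd3 was 66.1 in MyoD-null limb and 124 in WT limb, and 86.5 in the Myf5-null-labelled back and 90.6 in WT back. The one for Hoxb8 and Hoxb7 was 154 in MyoD-null limb and 136 in WT limb, against 133 in the Myf5-null-labelled back and 130 in WT back, with no gap between limb and back.

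Some limb and body wall factors outside the Hox clusters also differed between limb and back. Lhx9, a limb bud homeodomain factor, was 1153 in MyoD-null limb and 1127 in WT limb, against 145 in the Myf5-null-labelled back and 50.5 in WT back. Msx1, of undifferentiated limb mesenchyme, was 1705 in MyoD-null limb and 2029 in WT limb, against 387 in the Myf5-null-labelled back and 322 in WT back. Pitx1, a hindlimb gene, was 243 in MyoD-null limb and 757 in WT limb, against 1276 in the Myf5-null-labelled back and 1025 in WT back. Wt1, of kidney and body wall, was under 100 in MyoD-null limb and 108 in WT limb, against 657 in the Myf5-null-labelled back and 428 in WT back. These genes were named after their values were seen.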
